A study of Caenorhabditis elegans with 2 samples.

Results

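The loci described here are the tRNA genes of Caenorhabditis elegans, taken as every gene of biotype tRNA in the Ensembl annotation of WBcel235 with 200 bp added on each side. This rule gave 634 of the 46926 annotated genes, of which 612 were nuclear and 22 mitochondrial. The data were chromatin immunoprecipitation followed by sequencing (ChIP-seq) of the protein encoded by Y67H2A.10, which the submitters class as a transcription factor assay. The worms were of strain RW12295, in which the chromosome IV allele st12295 was made by CRISPR insertion and fuses the protein to TY1, EGFP and 3xFLAG tags. Whole young adults of 63 hours, synchronised by starving hatchlings after bleaching, were used, their chromatin was sonicated to fragments of 200 to 800 bp, and an antibody against GFP was used. The single group held 2 biological replicates of that strain, so no comparison between conditions was possible, and in whole animals the signal could not be assigned to a tissue.

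tRNA genes are transcribed by RNA polymerase III from a promoter that lies inside the gene. The general factor TFIIIC binds this promoter at an A box near the 5′ end and a B box farther in, and it places TFIIIB just upstream, which in turn recruits the polymerase. Transcription ends at a run of T bases shortly after the gene. In C. elegans the tRNA genes are scattered over all chromosomes, many sit in introns of protein-coding genes, and many exist in several copies of identical sequence.

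All 612 nuclear genes had the same position in the RefSeq annotation, which names the amino acid of 607 of them but no anticodon, so they were grouped by amino acid (isotype) and not by isoacceptor. Their bodies had a median length of 72 bp, from 64 to 122 bp. The A box consensus was found in 592 of the 612 bodies, with a median start at base 8, and a B box in 602, with a median start at base 52. As an A box counted TRGYNNARNNG, where R is A or G, Y is C or T and N is any base. As a B box counted any of GTTCGANNC, GTTCAANNC, GATCGANNC and GATCAANNC. Both were searched on the gene's own strand. A run of 4 or more T bases lay within 30 bp of the 3′ end of 605 genes. The 612 bodies came to 200 distinct sequences, and 469 genes had at least 1 identical copy elsewhere. Reads that fall inside such bodies cannot be told apart, and no source used here says how they were placed.

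The bodies of 5 of the genes with the highest signals are shown to place the promoter elements that the summits are measured against, with the A and B boxes in capitals. The bases come from the RefSeq sequence of WBcel235, 5′ to 3′ on the strand of the gene.
F15G9.t1: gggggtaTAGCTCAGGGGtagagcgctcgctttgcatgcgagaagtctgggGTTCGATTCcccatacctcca
F15G9.t2: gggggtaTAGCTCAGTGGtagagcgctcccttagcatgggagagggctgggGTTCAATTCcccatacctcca
ZK563.t1: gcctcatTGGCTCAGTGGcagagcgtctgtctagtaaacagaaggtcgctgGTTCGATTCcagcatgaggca
F02H6.t1: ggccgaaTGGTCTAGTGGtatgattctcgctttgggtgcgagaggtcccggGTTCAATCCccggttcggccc
T03E6.t1: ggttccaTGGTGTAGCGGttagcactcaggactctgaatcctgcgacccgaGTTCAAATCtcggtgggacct
The first pair are alanine tRNA genes at chrX:9743589-9743660 and chrX:9743747-9743818, both on the plus strand inside the gene him-4. ZK563.t1 is a threonine tRNA gene on the minus strand at chrX:3371422-3371493, inside the gene ZK563.2. F02H6.t1 is an intergenic proline tRNA gene on the plus strand at chrIV:14225102-14225173. T03E6.t1 is an intergenic glutamine tRNA gene on the minus strand at chrV:16592237-16592308.

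The deposited values are peak lists, in which each peak has a summit (its highest point) and a signal given by the authors' peak caller on a scale that is not stated. Read counts are not part of these lists. The depth behind a signal is therefore unknown, and signals are used only to describe and rank peaks within a list. Reproducibility is given as the irreproducible discovery rate (IDR), which is low where a peak ranks high in both lists compared. The conservative list compares the replicates and holds 709 records, none with an IDR above 0.00995, which merged to 666 regions where records overlapped. The ranked list behind it holds all 22544 candidate records. A gene is called kept below when a conservative summit falls in its body or within 200 bp of it. Replicate 1 had 24546 candidates and 325 records in its own thresholded list, and replicate 2 had 31534 and 414. Intervals after shares are 95% Wilson intervals, which cover the number of genes or regions counted and not the variation between animals.

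Of the 634 tRNA genes, 68 were kept, a share of 10.7% (8.55 to 13.4%). Over all annotated genes treated in the same way, the share was 1.59%. In the conservative list the tRNA share was close to those of other short non-coding gene classes. Summits were kept at 33 of 346 snoRNA genes (9.54%, 6.87 to 13.1%) and 15 of 129 snRNA genes (11.6%, 7.17 to 18.3%). Protein-coding genes, counted over their far longer bodies, reached 2.15%. All 68 kept genes were nuclear, and no list held a record on the mitochondrial genome.

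The kept share stood at 10.1% in the list made from the pooled reads of both replicates (64 genes), against 1.49% of all genes. In the thresholded list of each replicate alone it was lower. Replicate 1 listed 13 tRNA genes (2.05%), against 0.690% of all genes, 4.05% of snoRNA genes and 3.10% of snRNA genes. Replicate 2 listed 42 (6.62%), against 0.982% of all genes, 5.49% of snoRNA genes and 7.75% of snRNA genes. Among candidates without a threshold, 395 tRNA genes (62.3%) held a ranked summit, against 25.2% of all genes. The same share was 39.6% for snoRNA genes, 37.2% for snRNA genes and 42.8% for the longer protein-coding genes. Of the nuclear genes, 117 had a summit in none of the 3 ranked lists.

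Seen from the regions, 60 of the 666 conservative regions (9.01%, 7.06 to 11.4%) lay at a tRNA gene. The list of replicate 2 gave nearly the same share, 38 of 413 regions (9.20%), and that of replicate 1 a smaller one, 11 of 324 (3.40%, 1.91 to 5.98%). Among the 21835 ranked records that the conservative list left out, 320 (1.47%) were at tRNA genes. Other short non-coding genes showed a contrast in the same direction. At snoRNA genes lay 32 of the 666 regions (interval 3.42 to 6.70%) and 121 of the records left out (0.554%). For snRNA genes these were 14 regions (1.26 to 3.50%) and 42 records (0.192%). In the list of replicate 1, snoRNA genes held more regions than tRNA genes, 13 of 324 (4.01%). In that of replicate 2 they held fewer, 18 of 413 (4.36%).

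The tRNA regions were of middling to low strength within the conservative list. Their signals ran from 73.2 to 161 with a median of 94.2, whereas the other 606 regions had a median of 107 and a maximum of 944. The strongest tRNA region ranked 118 of 666, and their median rank was 454.

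The highest signal at a tRNA gene, 161, belonged to a region between M02F4.t2, a glutamate tRNA gene on the minus strand at chrX:3035976-3036047, and M02F4.t1, a glycine tRNA gene on the plus strand at chrX:3036164-3036235. The genes point away from each other, 116 bp apart. Replicate 1 gave this pair a signal of 86.8 and replicate 2 gave 74.1, and both replicates' thresholded lists held it. The summit lay outside both bodies, 65 bp upstream of M02F4.t2 and 52 bp upstream of M02F4.t1. The whole stretch between the genes is shown on the plus strand, chrX:3036048-3036163, with the base at the summit in capitals, because it carried the strongest tRNA-gene summit.
M02F4.t2 to M02F4.t1: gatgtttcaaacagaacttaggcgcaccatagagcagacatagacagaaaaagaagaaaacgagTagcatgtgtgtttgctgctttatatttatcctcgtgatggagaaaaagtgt

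The alanine pair F15G9.t1 and F15G9.t2, printed above, shared the next region, with a signal of 148.4. Its values in the replicates were 61.0 and 89.2, and of the replicates' own lists only that of replicate 2 held it. The summit lay 23 bp upstream of F15G9.t2 and 135 bp from the 5′ end of F15G9.t1, beyond its 3′ end. Next came W03G11.t1, an intergenic lysine tRNA gene on X, with a signal of 134 and replicate values of 64.5 and 77.0. F56F3.t1, an arginine tRNA gene on chromosome III, had a signal of 132 and nearly equal replicate values, 63.9 and 63.3. Both genes were in the lists of both replicates.

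C28G1.t1, a glutamate tRNA gene inside the gene C28G1.2, also had a signal of 132, with 46.5 and 81.5 in the replicates. The valine gene F22G12.t1 on chromosome I had a signal of 123, with 61.3 and 63.9 in the replicates. R01H5.t1, a threonine gene on X, had 122, with 56.2 and 58.4. ZK563.t1 had 120, with 70.1 and 56.3. The last of the 12 highest were F02H6.t1 with 116 (43.8 and 64.3) and T03E6.t1 with 113 (54.4 and 54.0). Neither replicate had the higher value throughout, and values from separate lists are not shown to share a scale. The 12 genes make up 10 regions, 6 of them on X, a chromosome that holds 45.1% of the nuclear tRNA genes.

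Across the 68 kept genes, replicate 1 signals ran from 36.5 to 86.8 with a median of 46.6. Those of replicate 2 ran from 32.7 to 89.2 with a median of 46.7. The lists themselves differ, with median signals over all candidates of 22.3 and 19.7 and maxima of 869 and 1083. Equal signals therefore do not mean equal standing in the replicates. Each kept gene ranked high among the candidates of both replicates, at percentiles from 94.0 to 99.5 in replicate 1 and from 93.8 to 99.6 in replicate 2. Within this narrow range the replicates ordered the genes only loosely, with Pearson's r = 0.25 on log2 signals and Spearman's rho = 0.178 over 68 genes. Over the 295 nuclear genes with a record in both replicates, r was 0.49 and rho 0.456. Over the 227 of them that were not kept, r was 0.106 and rho 0.095. These are descriptions across genes, which share libraries and in part sequence, and the IDR rule itself used both replicates' ranks.

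**Figure D1:**
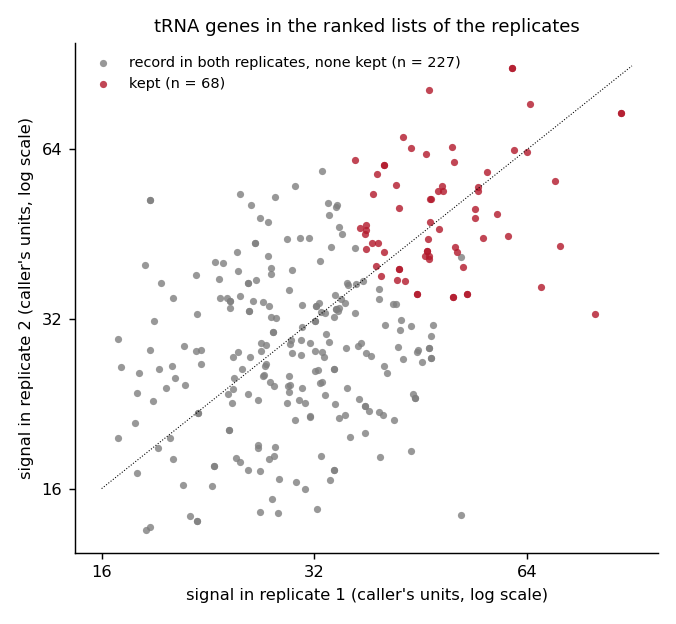
Signal of each tRNA gene in the ranked list of replicate 1 (x axis) and replicate 2 (y axis), in the caller's units on log axes, with 1 point per gene and a dotted line of equality. The 68 kept genes (red) fill the upper right corner, from 36.5 upward in replicate 1 and from 32.7 upward in replicate 2, and the 227 genes with a record in both replicates and none kept (grey) spread below them.

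The kept genes whose percentiles differed most between replicates were a few percentile points apart. With 24546 and 31534 candidates, that is many ranks beside thresholded lists of 325 and 414 records. The signals given here come from separate lists. C04A11.t1, a leucine tRNA gene on X, had 79.8 in replicate 1 and 32.7 in replicate 2. ZK994.t3, a threonine gene inside the gene pxn-1, had 36.5 and 61.2, and F57F5.t1, an isoleucine gene, had 38.7 and 53.4. C53C7.t3 (leucine) and C02B4.t1 (isoleucine) were likewise higher in replicate 2, with 37.1 against 46.4 and 39.2 against 57.8. Of these 5 genes only C04A11.t1 was higher in replicate 1. Among kept genes its replicate 1 signal was exceeded only by that of the M02F4 pair, yet the thresholded list of replicate 1 did not hold it.

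Single-replicate lists overlapped the conservative list in part. Of the 68 kept genes, 8 were in both replicate lists, 3 in that of replicate 1 only, 24 in that of replicate 2 only and 33 in neither. The pooled list held 54 of them. In the other direction, 2 genes were listed in replicate 1 and 10 in replicate 2 without being kept. The pair from replicate 1 were the neighbouring glutamine genes H35N09.t1 and H35N09.t2, whose joint IDR was 0.0431 with signals of 46.5 and 28.4 in the replicates.

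At the threshold itself, the weakest kept genes by IDR were C42D8.t1 (isoleucine, IDR 0.00921), B0212.t1 (proline, 0.00878) and F47G6.t1 (arginine, 0.00846). Just outside it were T26C11.t1 (glutamate, 0.0105), Y73B6BL.t1 (valine, 0.0112) and C14F11.t1 (arginine, 0.0116). C14F11.t1 had replicate signals of 34.4 and 50.5, and C42D8.t1 39.8 and 38.1, so the order by IDR was not the order by signal. The outcome depended on merging at F46G11.t1 and K02A4.t2. Their own conservative records had weak signals (16.2 and 2.64) but low IDR (0.00176 and 0.000947), and overlapped a stronger record at the neighbouring tRNA gene. Both genes are counted as not kept.

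Summits of kept genes lay mostly inside the gene, toward its 5′ end. The median was 22 bp from the annotated 5′ end, with quartiles of 0.25 and 44.5 bp and a range from -112 to 246 bp. Of the 68 summits, 42 were in the body (61.8%, 49.9 to 72.4%), 17 upstream and 9 downstream. Among the 52 genes that shared their summit with no other tRNA gene, 39 had it in the body (75%, 61.8 to 84.8%). For 33 of the 67 kept genes with both boxes the summit fell between the start of the A box and the start of the B box.

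For these same 68 genes, the ranked summits of the separate replicates had medians of 19 bp in replicate 1 and 20 bp in replicate 2. The genes of each replicate's own thresholded list differed more: the median was 17 bp for the 42 genes of replicate 2, but -24 bp, upstream of the gene, for the 13 genes of replicate 1. The 327 genes with a candidate but none kept had a median of 20 bp, with a wider spread: quartiles were -25 and 61 bp, and 137 (41.9%) were in the body. In the 33 kept snoRNA genes the median was -36 bp, with 27 summits upstream of the gene, and in the 15 kept snRNA genes it was 30 bp. Nearly all candidate records were of fixed width with the summit at their centre, so a summit marks the middle of a called window, and fragments of 200 to 800 bp limit its resolution.

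**Figure D2:**
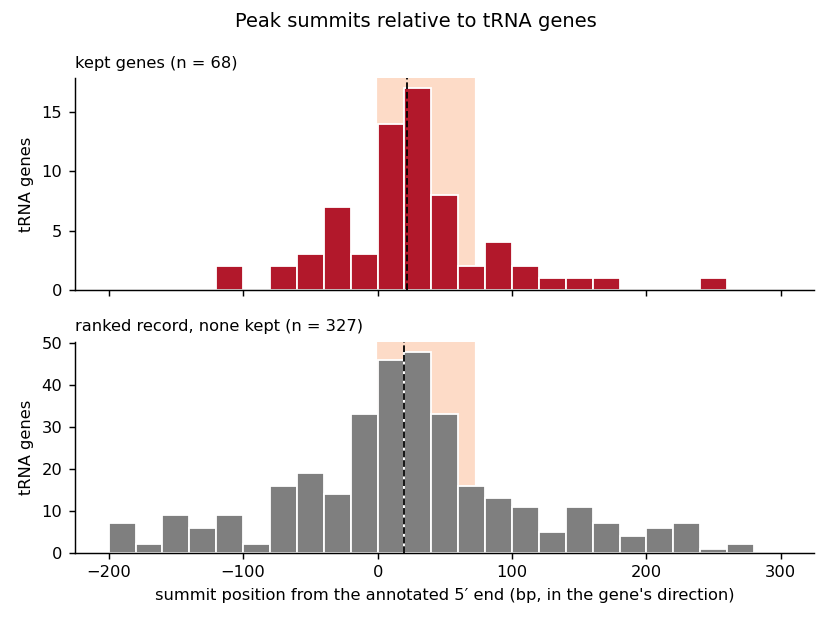
Number of tRNA genes by position of the peak summit from the annotated 5′ end, in bp along the gene, in 20 bp bins, for the 68 kept genes (top) and the 327 genes with a ranked record and none kept (bottom). The shaded band is a body of the median length of 72 bp and the dashed lines are the medians, 22 and 20 bp; both sets peak inside the band and the lower one has longer tails.

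Of the 60 regions, 8 were each shared by a pair of tRNA genes, giving 16 of the 68 kept genes. The genes of 3 pairs pointed away from each other, those of 2 pairs toward each other, and those of 3 in the same direction. Besides the M02F4 and F15G9 pairs, the divergent pairs were those of T10B10 and W09D6. T10B10.t2 and T10B10.t1 were glycine genes of the same sequence on X (signal 82.3, with 50.2 and 35.1 in the replicates). W09D6.t2 and W09D6.t1 were identical proline genes inside the gene rsa-2 (87.6, with 52.5 and 35.5). Both of these pairs had the higher value in replicate 1. Y22D7AL.t3 and Y22D7AL.t4, a methionine and a glutamate gene on chromosome III that point toward each other, had 104 with 40.1 and 60.1. T23F1.t1 and T23F1.t2 (lysine and proline, chromosome V) also converged, with 80.4. The tandem pairs were F42A10.t1 and F42A10.t2 (both serine, chromosome III), with 84.2, and F49C5.t4 and F49C5.t3 (lysine and leucine, chromosome II), with 78.9. A shared summit is 1 measurement and not 2.

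With clustered genes defined as those within 1000 bp of another tRNA gene, 23 of 236 were kept (9.75%, 6.58 to 14.2%), against 45 of 376 solitary genes (12%, 9.07 to 15.6%), and the intervals overlapped. At a looser IDR of 0.05 they did not, with 12.7% of clustered genes (9.05 to 17.6%) and 21.5% of solitary ones (17.7 to 25.97%). Among candidates without a threshold the order was the other way. A ranked summit lay at 68.6% of clustered genes (62.5 to 74.2%) and 62.0% of solitary ones (57.0 to 66.7%). Overlapping records were merged at the IDR thresholds but not in the ranked list, and the part of merging was not tested. In the 8 clusters of 4 or more genes, 1 of 38 genes was kept.

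Intronic and intergenic loci had overlapping shares. A gene counted as intronic when its body lay within the span of a protein-coding gene on either strand. Of the 290 intronic genes, 7 overlapped an exon. In all, 29 of the 290 were kept (10.0%, 7.05 to 14%), and of 319 intergenic ones 39 (12.2%, 9.07 to 16.3%). The 3 genes that overlapped a protein-coding gene in part had none. In replicate 2 both classes stood at 6.90% (20 and 22 genes), whereas replicate 1 listed 2 intronic genes (0.690%, 0.189 to 2.48%) and 11 intergenic ones (3.45%, 1.94 to 6.07%). Intronic genes on the same strand as their host were kept in 14 of 167 cases (8.38%) and those on the opposite strand only in 15 of 123 (12.2%).

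The X chromosome carries 276 of the 612 nuclear tRNA genes (45.1%). On X 32 were kept (11.6%, 8.33 to 15.9%) and on the autosomes 36 of 336 (10.7%, 7.84 to 14.5%), so the shares differed by less than their intervals. The separate lists had fewer genes, and the intervals of X and the autosomes overlapped in both. Replicate 1 listed 10 genes on X (3.62%, 1.98 to 6.54%) and 3 on the autosomes (0.893%, 0.304 to 2.59%). Replicate 2 listed 22 on X (7.97%, 5.32 to 11.8%) and 20 on the autosomes (5.95%, 3.89 to 9.01%). For all other nuclear genes the conservative shares were 1.27% on X (1.01 to 1.59%) and 1.5% on the autosomes (1.38 to 1.62%). In the list of replicate 1 those shares were 0.452% and 0.703%. Among single chromosomes, III had the highest conservative share of tRNA genes, 15 of 64 (23.4%, 14.7 to 35.1%), but the list of replicate 1 held 1 of these genes and that of replicate 2 held 5.

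**Figure D3:**
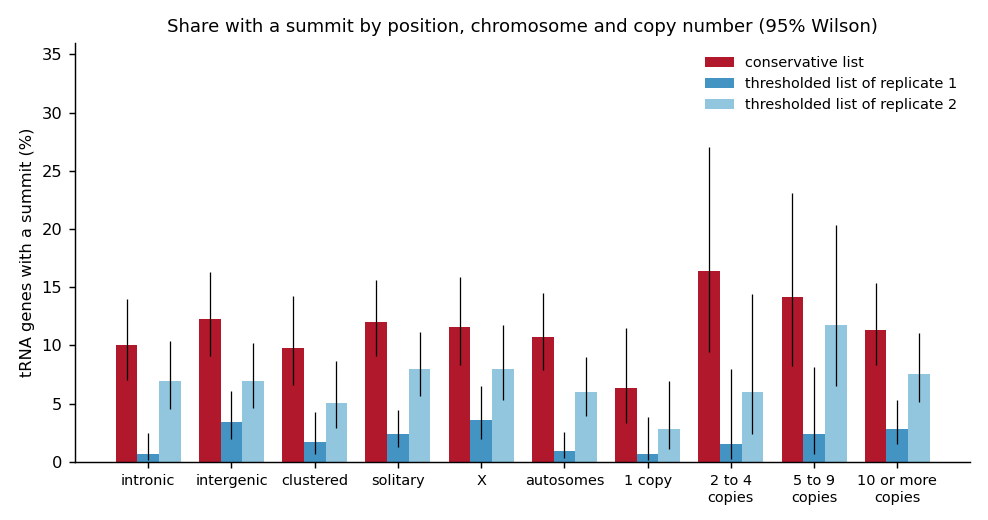
Percentage of nuclear tRNA genes with a summit in the conservative list (red) and in the thresholded lists of replicate 1 (dark blue) and replicate 2 (light blue), by genomic context, grouping, chromosome and number of identical copies; bars are shares and lines are 95% Wilson intervals. Intervals of paired classes overlap in the conservative list, and replicate 1 is lowest throughout.

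By isotype, 18 of the 21 amino acids had at least 1 kept gene. Threonine had the highest share, 6 of 34 genes (17.6%, 8.35 to 33.5%), followed by proline with 7 of 42 (16.7%, 8.32 to 30.6%) and tyrosine with 3 of 19 (15.8%). None of 20 histidine genes was kept, for which the interval reaches 16.1%, none of 12 tryptophan genes (up to 24.2%), and not the single selenocysteine gene. Aspartate and glutamine were low, with 1 of 27 genes each (3.70%, 0.657 to 18.3%). Every one of these intervals contains the nuclear share of 11.1%, so no isotype stood apart at these numbers. Histidine genes did appear among candidates, with 11 of 20 in the ranked list, as did 6 of 12 tryptophan genes.

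The highest gene of each isotype came from the list above for Ala, Arg, Gln, Glu, Gly, Lys, Pro, Thr and Val. For the rest, the leucine gene C04A11.t1 had a conservative signal of 105, the asparagine gene F41D9.t3 108 and the serine gene K02A4.t1 106. The methionine gene Y22D7AL.t3 had 104, the tyrosine gene C02B4.t2 100.01 and the isoleucine gene C02B4.t1 99.4. The phenylalanine gene Y39B6A.t9 had 96.0, the cysteine gene F42D1.t1 89.9 and the aspartate gene T14F9.t1 88.2. On X lay 7 of these 9, and T14F9.t1 was the only one of them in the list of replicate 1.

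**Figure D4:**
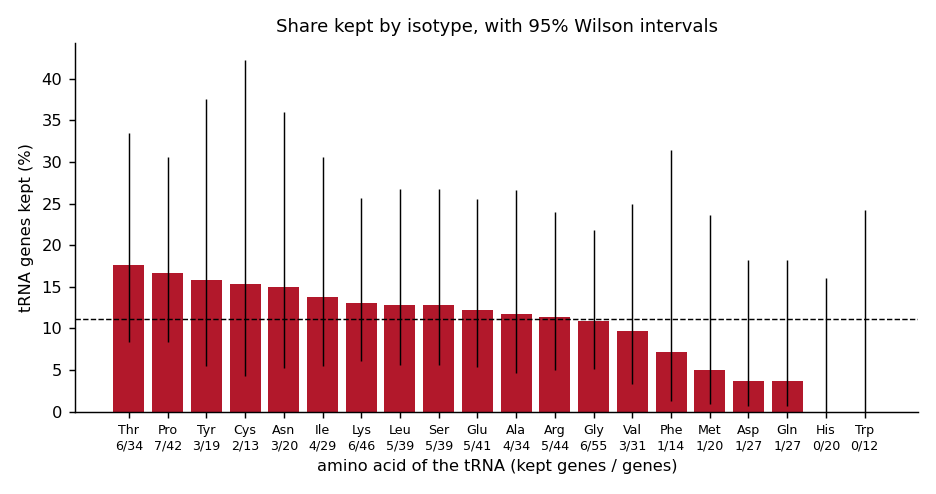
Percentage of tRNA genes kept for each isotype with at least 12 genes, with the counts under each bar, 95% Wilson intervals as lines and the share of all nuclear tRNA genes (11.1%) as a dashed line. The shares fall from 17.6% for Thr to 0 for His and Trp, and the dashed line crosses every interval.

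Of the 68 kept genes, 59 (86.8%) had an identical copy, against 76.6% of all nuclear tRNA genes. Of the 143 genes of unique sequence 9 were kept (6.29%, 3.35 to 11.5%). With 2 to 4 copies the share was 16.4% (11 of 67), with 5 to 9 copies 14.1% (12 of 85), and with 10 or more copies 11.4% (36 of 317, 8.32 to 15.3%), so the share did not climb steadily with copy number. The 29 genes with an intron in the tRNA itself included 7 kept ones (24.1%, 12.2 to 42.1%), against 61 of 583 others (10.5%, 8.23 to 13.2%). At an IDR of 0.05 the order was the same, with 27.6 against 17.7%. It turned at 0.001, with 1 of 29 (3.45%) against 27 of 583 (4.63%), and among candidates without a threshold, with 58.6 against 64.8%. None of those 29 was in the list of replicate 1 and 3 were in that of replicate 2.

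Families of identical genes were not kept as a whole. There were 20 families of 10 or more identical copies, with 317 genes in all. Of these families 15 had a kept copy, none had all copies kept, and the most kept copies in any was 5. The largest, 29 glycine genes including M02F4.t1, had 4 kept, of which T10B10.t2 and T10B10.t1 shared 1 summit. The family with 5 kept copies was that of the proline gene F02H6.t1, with 24 copies, of which 15 had a ranked record and 4 were in no ranked list. Its kept copies W09D6.t2 and W09D6.t1 shared 1 summit.

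Since the bodies in this proline family are the same, the 60 bases before the gene are shown for the 5 kept copies, followed by those for the 4 copies with no record. They are written in lower case, 5′ to 3′ toward the gene.
W09D6.t2, kept: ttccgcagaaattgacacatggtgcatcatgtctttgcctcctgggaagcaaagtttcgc
W09D6.t1, kept: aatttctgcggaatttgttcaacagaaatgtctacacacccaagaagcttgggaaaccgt
F02H6.t1, kept: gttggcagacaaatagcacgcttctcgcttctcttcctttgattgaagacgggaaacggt
T23F1.t2, kept: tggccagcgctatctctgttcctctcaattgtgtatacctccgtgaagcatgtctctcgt
F46G11.t2, kept: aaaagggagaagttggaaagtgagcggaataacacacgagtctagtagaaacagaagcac
R11G10.t2, no record: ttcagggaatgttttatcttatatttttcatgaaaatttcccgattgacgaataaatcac
R11G10.t1, no record: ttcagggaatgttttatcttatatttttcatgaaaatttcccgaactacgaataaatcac
C16B8.t1, no record: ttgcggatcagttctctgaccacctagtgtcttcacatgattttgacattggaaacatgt
Y7A5A.t3, no record: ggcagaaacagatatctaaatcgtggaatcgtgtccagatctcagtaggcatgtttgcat
The kept copies had a GC content of 41.7 to 50% in these bases. The copies with no record ranged from 28.3% in R11G10.t2 and R11G10.t1, whose flanks are nearly alike, to 41.7% in C16B8.t1 and 43.3% in Y7A5A.t3, so the groups overlapped.

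Over all nuclear tRNA genes, the sequence before the gene was richer in GC where a summit was kept. The 200 bp upstream averaged 42.7% GC ± 5.53 (SD, n = 68 genes) in kept genes, 39.6% ± 6.18 (n = 327) in genes with a candidate and none kept, and 36.7% ± 6.35 (n = 217) in genes with no ranked record. The bodies of the same sets all averaged 58.3%. The 200 bp downstream stepped down in the same order but by less, from 34.9% to 33.9% and 32.3%. Downstream GC on the autosomes was 37.9% in kept genes and 35.3% in others, and on X 31.6 and 30.7%. For the genes in the lists of replicates 1 and 2 it was 33.5 and 33.7%, against 33.4% in the genes not listed. In order of rising upstream GC, 6 of 176 genes at 35% or less were kept (3.41%, 1.57 to 7.24%), 16 of 163 over 35 to 40% (9.82%), 24 of 174 over 40 to 45% (13.8%), and 22 of 99 over 45% (22.2%, 15.2 to 31.4%). The share with a ranked record climbed over the same classes, from 48.9% through 65.0 and 68.4% to 84.8%.

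The difference was present on X (42.4% in kept genes against 36.6% in others) and on the autosomes (42.9 against 39.96%), and among intronic (43.7 against 39.5%) and intergenic genes (41.9 against 37.5%). It was also present in each replicate's own list, with 43.7% ± 3.57 (n = 13) in that of replicate 1 and 42.0% ± 6.16 (n = 42) in that of replicate 2, against 38.7% in the genes that replicate 2 did not list. Within the 15 large families that had a kept copy, the kept copies had the higher mean in 12, with a median difference of 3.75 percentage points and a range from -1.64 to 12.3. In the 16 smaller families with both kept and other copies, the kept copies were higher in 10 and not higher in 6, with a range from -5.25 to 33.5. The 200 bp upstream were taken whole, so they can hold part or all of a nearby tRNA gene, in kept and other genes. For F15G9.t2 and M02F4.t2, kept copies in the large families with differences of 10.7 and 12.3, they held all of F15G9.t1 and M02F4.t1. With 100 and 50 bp upstream the difference over all nuclear tRNA genes was 5.21 and 4.37 percentage points. The family differences were not recomputed. The other short non-coding genes showed a difference in the same direction. Kept snoRNA genes had 47.2% ± 4.56 upstream (n = 33) against 41.0% ± 7.52 in the others, and kept snRNA genes 47.3% ± 6.49 (n = 15) against 42.6% ± 8.0. The part of GC content in these calls was not tested.

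**Figure D5:**
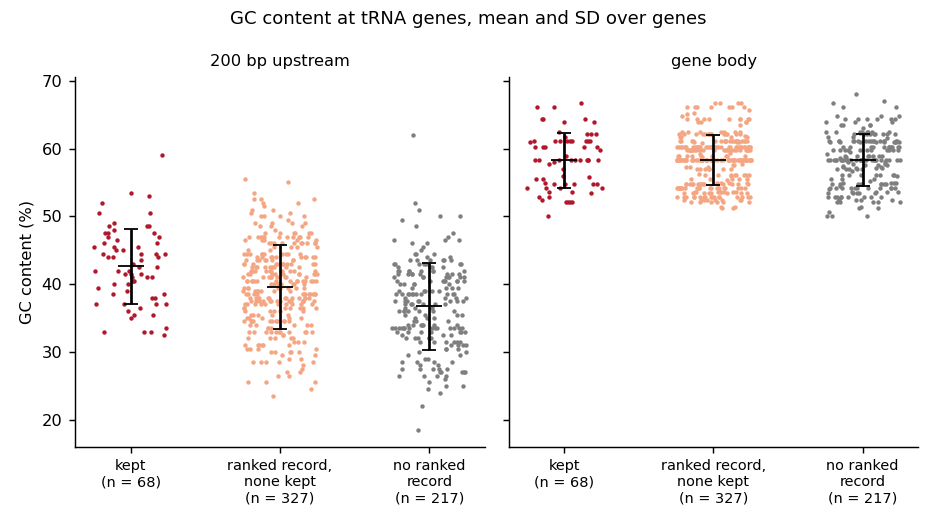
GC content in percent of the 200 bp upstream (left) and of the gene body (right) for kept tRNA genes, genes with a ranked record and none kept, and genes with no ranked record; points are genes, and the bars are the mean and SD over genes. Upstream means step down from 42.7 to 39.6 and 36.7%, while the bodies stay at 58.3%.

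The promoter boxes did not separate kept genes from the rest. The A box was in all 68 kept bodies and in 524 of 544 others (96.3%), and a B box in 67 of 68 (98.5%) and in 535 of 544 (98.3%). The B box word GTTCGANNC, searched on both strands, was in the window of 54 kept genes (79.4%, 68.4 to 87.3%) and of 395 others (72.6%, 68.7 to 76.2%). Within 50 bp of the summit it was in 45.6% of kept genes, and in 14 of the 606 regions at no tRNA gene (2.31%). A shorter part of it, GGTTCGA, which overlaps it, stood at 41.2% and 1.82%. TGGCNNAG, an A box word that allows fewer spellings than the consensus used above, was in 10 of 68 (14.7%) and 54 of 606 (8.91%). These words belong to tRNA bodies: GTTCGANNC was in 75% of kept and 71.9% of other bodies, and TGGCNNAG in 22.1 and 17.1%. Regions at no tRNA gene lack such bodies by choice, so nothing is concluded from the contrast with them. Kept genes that share a summit were each counted.

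A pair of words known from earlier results of these data was looked for as well. For that reason the other regions are not an independent comparison for these words. ACGCGC lay within 50 bp of the summit of 6 kept tRNA genes (8.82%, 4.11 to 17.9%) and of 109 of the 606 other regions (18.0%, 15.1 to 21.2%). It is part of the body of all 20 asparagine genes, of which 3 were kept, of all 12 tryptophan genes, of which none was, of 9 methionine genes, of which none was, and of 3 isoleucine genes, of which 2 were. Over all bodies it was in 7.35% of kept and 7.17% of other genes. GTCTCGCA was in the body of 26 of 27 aspartate genes, of which 1 was kept, and within 50 bp of the summit of 3 kept tRNA genes (4.41%) against 3.8% of the other regions.

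Kept tRNA summits were also set against the promoter windows of protein-coding genes, which reached from 500 bp before the gene's first base to 100 bp after it. The summits of 11 of the 68 genes (16.2%) lay in such a window, as did 345 of the 606 regions at no tRNA gene (56.9%). Few tRNA genes of any kind are so placed: the bodies of 84 of the 612 (13.7%) touched a window, and these were kept in 13.1% of cases, against 10.8% of the others. The windows were those of Y22D7AL.6 (with Y22D7AL.t3 and Y22D7AL.t4), pqn-71 (with T23F1.t1 and T23F1.t2), elmd-1, C24H11.2, the potassium channel genes twk-10 and kvs-3, the guanylate cyclase gene gcy-33, srh-269 (at T03E6.t1), and C28G1.2 with sec-15 (at C28G1.t1). In these cases the summit cannot be assigned to the tRNA gene rather than to the neighbouring promoter.

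Genes that make, process and modify tRNA were examined in the same promoter window. Of 25 such genes, 1 had a conservative summit, against 2.31% of all protein-coding genes in the same window. This gene was rpac-19, which encodes a subunit shared by RNA polymerases I and III (signal 93.6; 53.0 and 38.3 in the replicates). A ranked summit was present in 8 of the 25, against 19.7% of all protein-coding genes, among them hoe-1, the tRNA 3′ end nuclease (70.4 in the joint list; 34.3 and 34.3 in the replicates), and elpc-2, an Elongator subunit (68.3; 28.7 and 35.3). The TFIIIB subunit gene brf-1 and tbp-1, which encodes the TATA-binding protein, had a record in none of the ranked lists.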

How the data were processed

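ChIP-seq peaks were analysed for 2 biological replicates of 1 group. The authors deposited peak lists on ce11 (the same assembly as WBcel235) in narrowPeak layout. According to the records deposited with them, peaks were called against a control and compared by IDR; that control is not used here, and no source used here names the aligner or caller. From the deposited files were taken the summit, the signal (caller's value, unstated scale), the score (rescaled IDR, at most 1000) and, in the ranked lists, the −log10 of the IDR. In all, 4 thresholded and 3 ranked lists were used; 16 further columns of series-wide ranked tables, which match no sample, were left out.

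Overlapping records were merged to the summit and signal of the strongest (thresholded lists and those cut at other IDR thresholds, not the ranked lists). Genes came from Ensembl release 115, amino acids and sequence from RefSeq (WBcel235). The replicates are separate biological samples but no test was made: values are counts, medians and shares with 95% Wilson intervals (Python 3.11.15, numpy 2.4.6, pandas 2.3.3). Counting, positions and merging were tested on simulated peaks. Named genes were the 12 with the highest signal, the highest of each isotype and the 5 whose replicate percentiles differed most. Genes sharing a kept summit were named too, and the 3 weakest kept and 3 strongest not kept by IDR. The latter leave aside F46G11.t1 and K02A4.t2, whose records were merged away. Sequences are shown only for genes off chromosome I that have no identical copy there. H35N09.t1, H35N09.t2, F46G11.t1, K02A4.t2 and those named for a promoter window were added. The members, lists and words were chosen with earlier results of these data known, and the GC content, box spellings, T runs and family comparisons were added after seeing the data. Alternatives were other lists, IDR thresholds, flanks and ways of assigning summits.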

Additional observations from a re-analysis of the deposited data

How the results depend on the processing

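Of 98 recomputed values, 55 stayed within the interval (positions: quartiles; upstream GC: SD) of the reported value or, for the isotype count, within 1.5 times, 42 moved and 1 changed sign: the median summit position became -24 bp, upstream of the gene, with the list of replicate 1 alone. The share of tRNA genes kept became 6.62% with no flank, 18.0% with identical sequences counted once, 4.42% at an IDR of 0.001 and 17.5% at 0.05. Over all annotated genes the share was 0.855% at 0.001 and 2.42% at 0.05. At 0.001 the tRNA share was below those of snoRNA (6.36%) and snRNA genes (5.43%). At 0.05 it was above both (12.1 and 12.4%), and the intervals overlapped at each threshold. The share of regions became 6.31% with no flank and 6.90% at 0.001. At an IDR of 0.001 the shares were 4.48% (intronic), 4.70% (intergenic), 2.54% (clustered), 5.85% (solitary), 6.52% (X), 2.98% (autosomes), 1.40% (1 copy) and 5.36% (10 or more copies). At 0.05 they were 16.9% (intronic), 19.4% (intergenic), 21.5% (solitary), 19.2% (X), 17.3% (autosomes) and 20.2% (10 or more copies), while clustered genes stayed at 12.7%. GTTCGANNC fell to 45.6% within 50 bp of the summit. A stricter or looser threshold moves a share of genes by construction; for the share of regions the cause was not tested.

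With a single replicate's list the ranges, given as replicate 1 then replicate 2, were 2.05 and 6.62% (genes kept), 3.40 and 9.20% (regions), -24 and 17 bp (summit position), 9 and 18 isotypes, 0.690 and 6.90% (intronic), 3.45 and 6.90% (intergenic), 1.69 and 5.08% (clustered), 2.39 and 7.98% (solitary), 3.62 and 7.97% (X), 0.893 and 5.95% (autosomes), 0.699 and 2.80% (1 copy), 2.84 and 7.57% (10 or more copies), and 61.5 and 81.0% (GTTCGANNC). The median position in the list of replicate 1 rests on 13 genes. The upstream GC difference, an alternative set chosen after seeing the data, stayed between 3.12 and 5.21 percentage points. No paired analysis was possible because there was 1 group and no test. Depth is unknown, so genes without a summit are not shown to lack signal.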
